A study of Rattus norvegicus with 8 samples.

Results

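The genes that bring cholesterol into the mitochondrion and cleave its side chain were followed in the rat ovary: Star, Tspo, Cyp11a1, Fdx1 and Fdxr. They were chosen by name for their place in this step of steroid synthesis, and every array probe carrying one of these gene names was used. This gave 5 genes and 6 probes, of 21926 named genes and 25303 probes tested, with 2 probes for Star and 1 for each of the other genes. All 6 probes passed the filter on dim probes, and each was well above background on all 8 arrays.

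Ovaries of immature female rats were measured on 1-colour arrays, 4 labelled control and 4 labelled PMSG (pregnant mare serum gonadotropin, a hormone preparation that stimulates follicle growth). Per the labels, rats aged 26 days received a subcutaneous injection of 50 IU PMSG in a volume of 0.2 ml albumin phosphate buffer, or the same volume of the buffer with no hormone. The ovaries were removed 48 h afterwards, at an age of 28 days, and no strain or genotype is named. The titles of the 4 samples called control here read reference without treatment and do not mention the buffer. The labels do not say whether a replicate is 1 animal or a pool, so p-values measure the spread between these samples, which may be partly technical.

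Steroid synthesis begins when cholesterol crosses from the outer to the inner mitochondrial membrane, a transfer that Star, the steroidogenic acute regulatory protein, promotes. On the inner membrane Cyp11a1, the side-chain cleavage enzyme, converts cholesterol to pregnenolone, the precursor of progesterone, androgens and estrogens. It takes its electrons from the iron-sulfur protein ferredoxin (Fdx1), which ferredoxin reductase (Fdxr) reduces with electrons from NADPH. In the ovary this step runs in theca cells, in granulosa cells of large follicles and in the corpus luteum. Tspo is an outer mitochondrial membrane protein that binds cholesterol, and whether steroid synthesis needs it is debated.

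Directions follow the sample titles, and groups are called arrays labelled PMSG and arrays labelled control throughout. Some differences had the opposite sign to textbook gonadotropin responses, in which the hormone raises Star, Cyp11a1 and the luteinising hormone receptor Lhcgr. In these arrays Lhcgr was lower with the PMSG label (log2 difference -1.93, limma adjusted p = 0.00114), and Amh, a product of small growing follicles, was higher (3.03, limma adjusted p = 2.61e-04). Exchanged labels would turn the sign of every difference given here, and whether they were exchanged was not tested.

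The promoters of the genes whose differences are described below are shown to let the reader see which of the sequence elements often linked to steroidogenic genes they hold. RefSeq promoter windows on GRCr8 were matched by symbol for 3 of the 5 genes, and the 250 bases before each annotated start are printed 5′ to 3′ on the gene's strand. Capitals mark every match to the motifs searched. The Cyp11a1 window lies at chr8:67318415-67318664 on the plus strand, the Fdx1 window at chr8:61183646-61183895 on the minus strand, and the Fdxr window at chr10:101015536-101015785 on the minus strand.
Cyp11a1: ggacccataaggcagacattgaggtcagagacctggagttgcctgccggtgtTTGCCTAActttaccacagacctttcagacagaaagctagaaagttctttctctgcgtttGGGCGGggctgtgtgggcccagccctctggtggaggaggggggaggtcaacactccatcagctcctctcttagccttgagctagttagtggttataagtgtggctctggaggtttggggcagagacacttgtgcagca
Fdx1: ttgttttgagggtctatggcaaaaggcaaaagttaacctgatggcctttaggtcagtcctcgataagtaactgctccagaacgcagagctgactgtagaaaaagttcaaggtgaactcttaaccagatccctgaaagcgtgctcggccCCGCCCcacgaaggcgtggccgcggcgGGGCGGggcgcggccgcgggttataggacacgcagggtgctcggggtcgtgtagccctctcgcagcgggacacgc
Fdxr: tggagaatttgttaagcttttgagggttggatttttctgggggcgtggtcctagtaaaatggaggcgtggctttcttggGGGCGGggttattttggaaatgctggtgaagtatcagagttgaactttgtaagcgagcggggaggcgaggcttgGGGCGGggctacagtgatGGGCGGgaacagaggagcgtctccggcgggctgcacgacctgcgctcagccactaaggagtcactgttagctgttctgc
A set of 8 motifs was searched on both strands, and only exact matches to the letters were counted, N being any base. Elements that depart from these letters would be missed. For the nuclear receptors of the NR5A family the letters were AAGGTCA, for the zinc finger proteins of the GATA family AGATAA, for the cyclic AMP response element TGACGTCA, for AP-1 proteins TGAGTCA, for C/EBP proteins TTGCNNAA and for Sp1 proteins GGGCGG. The core promoter element known as the TATA box was searched as the letters TATAAA and the sterol response element as TCACNCCAC. The Sp1 letters occurred once in the Cyp11a1 window, 133 bases from the start, 2 times in the Fdx1 window, at 97 and 70 bases, and 3 times in the Fdxr window, at 166, 92 and 74 bases. They occur in 30.5% of all 33469 windows of this length. The C/EBP letters occurred once, in the Cyp11a1 window 191 bases from the start, and in 9.22% of all windows. No matches overlapped, and the other 6 motifs had no match in these windows, in which they occur in 0.974% (sterol response element) to 12.9% (TATA box) of all windows.

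The array reads each gene through probes of 60 bases. The probes of the enzyme and its electron carrier are shown because the Cyp11a1 difference was the largest among the members and Fdx1 is its direct electron donor. The Cyp11a1 probe lies at chr8:61805170-61805229 on the plus strand and the Fdx1 probe at chr8:55295902-55295961 on the minus strand of rn4, the build named in the file headers.
Cyp11a1 probe: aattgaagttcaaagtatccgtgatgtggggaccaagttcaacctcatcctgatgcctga
Fdx1 probe: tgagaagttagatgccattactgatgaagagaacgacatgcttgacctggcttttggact
The Star probes lie at chr16:70640879-70640938 and chr16:70642580-70642639, both on the minus strand, with their starts 1701 bases apart. On that strand the first is the downstream and the second the upstream probe. The array annotation assigns them to different transcript records of Star, the downstream probe at base 2750 and the upstream probe at base 1094. Whether both read the same Star RNA was not tested. The Tspo probe lies at chr7:121599117-121599176 on the plus strand and the Fdxr probe at chr10:105342684-105342743 on the minus strand. Exon and untranslated-region annotation of rn4 was not used here.

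All 6 probes were lower in arrays labelled PMSG with a limma adjusted p under 0.05. Among all tested probes 16.6% were lower by this rule, 17.6% were higher and 34.2% differed in either direction. The 4 probes of Cyp11a1, Star and Fdx1 were also at least 2-fold lower, which 4.6% of all tested probes were. For 5 of the 6 probes every array labelled PMSG lay below every array labelled control, which held for 18.6% of all tested probes (36.6% when either direction counts). The median log2 difference of all tested probes was 0.11. Among the 2406 probes at a mean level of at least 3, a limit chosen after the values were seen, 21.4% were lower and 9.98% higher, with a median of 0.02. Levels below are on the log2 scale, relative to the 75th percentile of all probes on the same array, and a difference is the mean of arrays labelled PMSG minus that of arrays labelled control. The members gave bright signals: all 224 of their spots were well above background, 0 were saturated, and the brightest read 112797 where the brightest spot of any gene read 425918. As the tissue was measured in bulk, fewer cells of a type and less RNA per cell cannot be told apart.

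**Figure D1:**
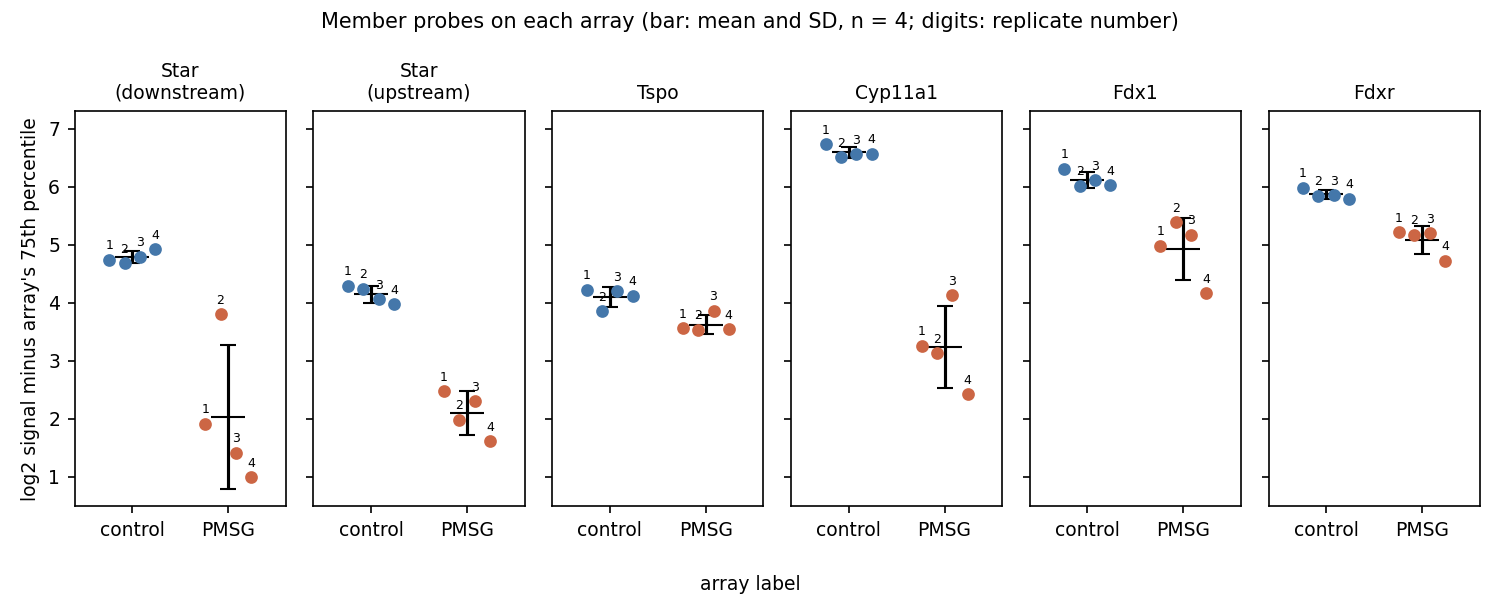
Log2 signal minus the array's 75th percentile (vertical axis) of the 6 probes on each array, by array label (horizontal axis). Points are arrays numbered by replicate, and bars are the mean and SD of 4 arrays. The groups are separate for every probe except that of Tspo, and PMSG-labelled array 2 lies at 3.81 on the downstream Star probe, above the other 3.

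Star, which delivers the substrate, was read by both probes. On the downstream probe the control-labelled arrays 1 to 4 gave 4.75, 4.68, 4.80 and 4.92, and the PMSG-labelled arrays 1 to 4 gave 1.92, 3.81, 1.42 and 0.99. The groups did not overlap, and PMSG-labelled array 2 lay much nearer to the control-labelled arrays than the other 3 did. The means were 4.79 ± 0.10 (SD, n = 4) and 2.04 ± 1.24 (SD, n = 4), a difference of -2.75 (SE 0.54), or 6.74-fold lower (limma adjusted p = 0.00541).

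The upstream Star probe gave 4.30, 4.25, 4.07 and 3.97 on the control-labelled arrays and 2.48, 1.99, 2.30 and 1.62 on the PMSG-labelled arrays. Here array 2 stood among the other arrays of its label, and the groups lay 1.49 apart at their nearest. The means were 4.15 ± 0.15 (SD, n = 4) and 2.10 ± 0.38 (SD, n = 4), a difference of -2.05 (SE 0.19), or 4.13-fold lower (limma adjusted p = 2.32e-04).

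The Star probes therefore gave different accounts of PMSG-labelled array 2. They also differed elsewhere: the downstream probe read below the upstream probe on the other PMSG-labelled arrays, and above it on every control-labelled array. The downstream value minus the upstream value, a log2 ratio within an array, was 0.45, 0.44, 0.73 and 0.95 on the control-labelled arrays and -0.56, 1.82, -0.88 and -0.63 on the PMSG-labelled arrays. Its mean was 0.64 ± 0.25 (SD, n = 4) with the control label and -0.06 ± 1.26 (SD, n = 4) with the PMSG label, and -0.69 ± 0.17 over the 3 PMSG-labelled arrays other than array 2. This ratio was looked at after the values had been seen and is a description with no test. The downstream probe has 10 spots per array, whose log2 signals had an SD of 0.0286 to 0.125 within an array. The upstream probe has 2 spots, which on PMSG-labelled array 2 read 3100 and 5351 (SD 0.56). Without array 2 the downstream difference was -3.34 (SE 0.21, limma adjusted p = 2.58e-04) and the upstream difference -2.01 (SE 0.22, limma adjusted p = 0.00121).

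**Figure D2:**
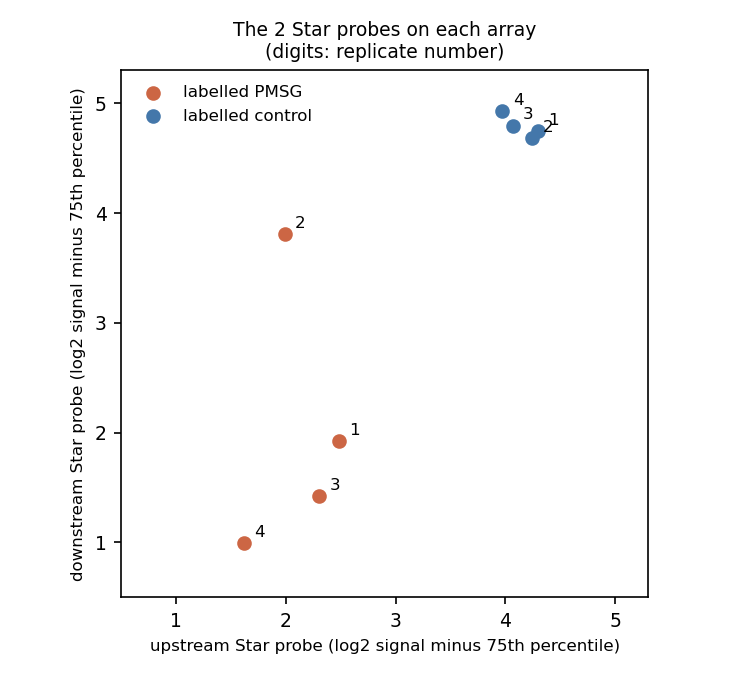
Each array by its upstream (horizontal axis) and downstream (vertical axis) Star probe, both as log2 signal minus the array's 75th percentile. Points are arrays, coloured by label and numbered by replicate. PMSG-labelled array 2 lies at 1.99 on the upstream probe, among the arrays of its label, and at 3.81 on the downstream probe, apart from them.

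The genes Crem, Nr4a1 and Areg, picked after their values had been seen, were also higher on PMSG-labelled array 2 than on the other arrays of its label. No list of like genes was counted. Crem, a transcription factor of the cyclic AMP pathway, gave 0.63, 2.61, 0.77 and 1.37 on PMSG-labelled arrays 1 to 4. Nr4a1, an orphan nuclear receptor induced by gonadotropins, gave 0.27, 2.37, -0.06 and 0.41. Areg, an epidermal growth factor family ligand of the ovulatory response, gave -5.33, -3.23, -5.11 and -5.29. Neither Crem (log2 difference 0.39, limma adjusted p = 0.462) nor Nr4a1 (-1.44, limma adjusted p = 0.0536) passed the test between labels, whereas Areg was lower with the PMSG label (-4.08, limma adjusted p = 4.49e-04) and its groups did not overlap. Without array 2, their deviations from the label means had r = -0.845 (Crem), 0.0566 (Nr4a1) and 0.118 (Areg) with those of the downstream Star probe over 7 arrays. Whether what sets array 2 apart bears on the Star difference was not tested beyond leaving that array out.

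Tspo gave 4.23, 3.86, 4.20 and 4.12 on the control-labelled arrays and 3.56, 3.54, 3.86 and 3.55 on the PMSG-labelled arrays. The groups met at control-labelled array 2 and PMSG-labelled array 3. The means were 4.10 ± 0.17 (SD, n = 4) and 3.63 ± 0.16 (SD, n = 4), a difference of -0.48 (SE 0.12), or 1.39-fold lower (limma adjusted p = 0.0198). This call lay near the threshold and was lost when single arrays of either label were left out. In those fits 25.9% to 29.6% of all tested probes were called, against 34.2% with all arrays. The limma adjusted p was 0.0586, 0.0543 or 0.0529 without control-labelled array 1, 3 or 4, and 0.0517 or 0.0509 without PMSG-labelled array 1 or 2, with differences of -0.44, -0.44, -0.47, -0.45 and -0.45. With quantile normalization it was 0.0621 (difference -0.33).

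Cyp11a1, the enzyme that makes pregnenolone, had the lowest difference of the members. The control-labelled arrays gave 6.74, 6.51, 6.56 and 6.57 and the PMSG-labelled arrays 3.26, 3.13, 4.13 and 2.42. The nearest arrays of the groups were 2.38 apart, and PMSG-labelled arrays spread over 1.71 against 0.23 for control-labelled arrays. The means were 6.59 ± 0.10 (SD, n = 4) and 3.24 ± 0.70 (SD, n = 4), a difference of -3.36 (SE 0.31), or 10.25-fold lower (limma adjusted p = 2.32e-04). Among the 25303 tested probes its difference ranked 35 from the lowest, against 75 for the downstream and 245 for the upstream Star probe. PMSG-labelled array 2, the high array on the downstream Star probe, was not high for Cyp11a1, for which array 3 was highest.

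The electron carriers differed by less. Fdx1 gave 6.32, 6.02, 6.12 and 6.03 on the control-labelled arrays and 4.99, 5.39, 5.17 and 4.17 on the PMSG-labelled arrays. Its groups lay 0.63 apart, with PMSG-labelled array 4 the lowest of all. The means were 6.12 ± 0.14 (SD, n = 4) and 4.93 ± 0.53 (SD, n = 4), a difference of -1.19 (SE 0.25), or 2.28-fold lower (limma adjusted p = 0.00713).

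Fdxr, the first carrier in the chain, gave 5.99, 5.85, 5.86 and 5.79 on the control-labelled arrays and 5.22, 5.18, 5.21 and 4.72 on the PMSG-labelled arrays. Array 4 was again the lowest, and the groups lay 0.57 apart. The means were 5.87 ± 0.08 (SD, n = 4) and 5.08 ± 0.24 (SD, n = 4), a difference of -0.79 (SE 0.13), or 1.73-fold lower (limma adjusted p = 0.00260). By size of difference Fdx1 ranked 910, Fdxr 2042 and Tspo 4081 from the lowest of all tested probes.

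**Figure D3:**
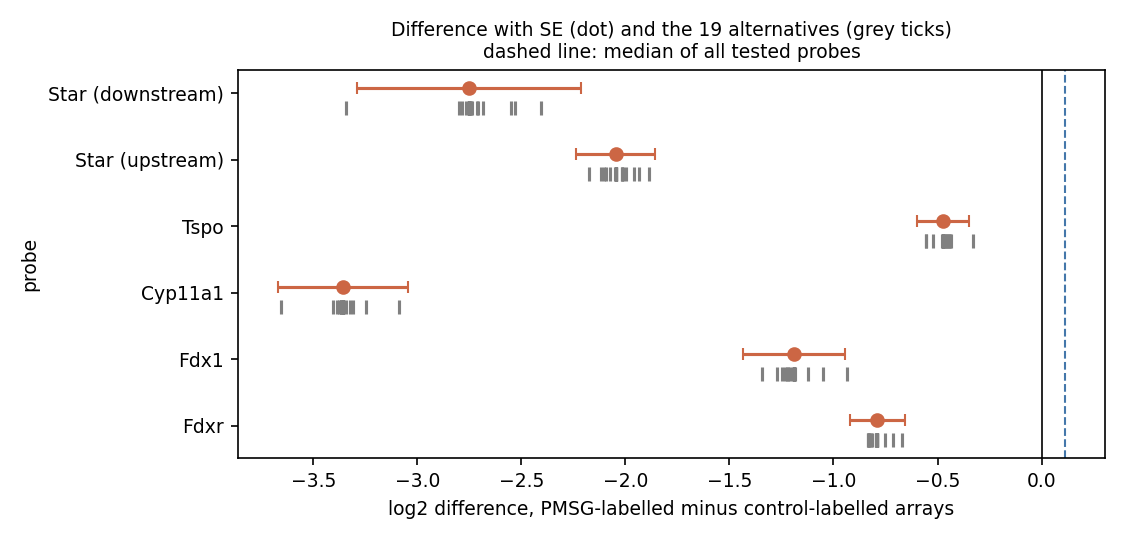
Log2 difference between arrays labelled PMSG and control (horizontal axis) for each probe (vertical axis), with dots and bars for the difference and its SE and grey ticks for 19 other ways of processing. The dashed line is the median of all tested probes, 0.11. Cyp11a1 at -3.36 and the Star probes at -2.75 and -2.05 lie farthest from it, and Tspo at -0.48 nearest.

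To ask whether members differed between labels by unequal amounts, the log2 ratio of 2 members within each array was compared between labels for all 10 pairs. An exact two-sided permutation test was used, whose smallest p with 4 against 4 arrays is 0.0286, with Benjamini-Hochberg adjustment over the 10 pairs. The Cyp11a1 ratio to Fdx1 differed by -2.17 (SE 0.25), to Fdxr by -2.57 (SE 0.27) and to Tspo by -2.88 (SE 0.29). The Star ratio, on the downstream probe, differed to Fdx1 by -1.56 (SE 0.47), to Fdxr by -1.96 (SE 0.58) and to Tspo by -2.28 (SE 0.66). The Fdx1 ratio to Tspo differed by -0.71 (SE 0.26), with a 95% interval of -1.50 to 0.07 that includes 0. These 7 pairs did not overlap between labels (exact permutation p = 0.0286, adjusted 0.0408). On these probes the enzyme and the transport protein were thus lower by more than the electron carriers and Tspo. The exception was quantile normalization, with which the Star ratios to Fdx1 (-1.44) and to Fdxr (-1.86) had an exact permutation p of 0.0571. A ratio sets 2 probes as well as 2 genes against each other. The 2 probes of Star alone differed in this way by -0.70 between labels, and by -1.33 without PMSG-labelled array 2. How much the other ratios owe to their probes was not tested.

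The other 3 pairs did not pass. The Fdx1 ratio to Fdxr differed by -0.40 (95% interval -0.90 to 0.10) and the Fdxr ratio to Tspo by -0.31 (95% interval -0.67 to 0.04), each with an exact permutation p of 0.0571, adjusted 0.0635. The Cyp11a1 ratio to Star differed by -0.61 (95% interval -2.82 to 1.61, exact permutation p = 0.571), and by 0.02 without PMSG-labelled array 2. With the upstream Star probe in its place, chosen after the probes were seen to differ, the ratio differed by -1.31 (SE 0.25) and the groups did not overlap (exact permutation p = 0.0286). Whether Cyp11a1 was lower by more than Star thus depends on the Star probe.

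The members also varied together to different degrees among arrays of 1 label. As a description over the 8 arrays, which share their slide and scaling, deviations from the label means correlated most between Fdx1 and Fdxr (r = 0.924), the ferredoxin and its reductase. PMSG-labelled array 4 was the lowest of its label for both (4.17 and 4.72), and r without it was not computed. On PMSG-labelled array 2 Fdx1 was the highest of its label (5.39), whereas Fdxr (5.18) was lower than on arrays 1 and 3. The upstream Star probe had its highest values with Fdxr (r = 0.872), Cyp11a1 (r = 0.708) and Fdx1 (r = 0.627). The downstream Star probe had r = 0.701 with Fdx1 and 0.461 with Fdxr, but 0.0393 with Cyp11a1 and 0.0631 with the upstream Star probe. Cyp11a1 had r = 0.774 with Fdxr and 0.707 with Fdx1.

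Among 14914 probes of genes with a RefSeq symbol and a signal well above background on each array, the genes with the values most like a member over the 8 arrays were listed by Pearson correlation. For Cyp11a1 they were Nme1 (r = 0.998), Klhdc8a (0.9965) and Psmc5 (0.9964), with differences of -0.93, -2.90 and -0.66. A difference between labels in the same direction raises such an r, and 34.2% of all tested probes differed in either direction. Those most like Star on the downstream probe were Hnrnpk (0.9896), Armcx3 (0.9859) and Rerg (0.9851). For Fdx1 they were Ipp (0.9932), Itgb3 (0.984) and Mgp (0.9836), for Fdxr Napg (0.9959), Reep3 (0.9951) and Emc6 (0.9944), and for Tspo Cmc1 (0.9892), Decr1 (0.9873) and Gpx3 (0.9828). By deviations from the label means, those most like Star were Rab20 (r = 0.9887), Mapkapk2 (0.9876) and Emp1 (0.9774), with 0.965, 0.901 and 0.808 when PMSG-labelled array 2 was left out.

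The members work among other mitochondrial proteins, which were followed in 7 gene lists with 1 probe per gene. Counts below are of genes past a limma adjusted p of 0.05, to be read beside the 16.6% lower and 17.6% higher among all tested probes. The list of START domain proteins, the lipid carriers to whose family Star belongs, also held Stard3nl, a relative of Stard3 without that domain. Of its 11 genes 3 were lower, among them Stard3nl (-0.39, limma adjusted p = 0.0267), and 2 higher. The median difference was -0.03 (0.004 with normexp background correction). With quantile normalization or median centring 1 was higher. Stard4, a cytosolic sterol carrier, differed by -1.84 (limma adjusted p = 2.32e-05) and the phosphatidylcholine carrier Pctp by -1.04 (limma adjusted p = 1.99e-04). Stard10, a phospholipid carrier, was higher by 0.67 (limma adjusted p = 0.0465). The count of START domain genes past the threshold was 5 and became 3 without control-labelled array 1, 2 or 4 or PMSG-labelled array 1. In the same fits 27.3%, 26.6%, 25.9% and 28.1% of all tested probes were past it, against 34.2% with all arrays.

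Of the listed partners of Star and Tspo, not all of them outer membrane proteins, 6 of 13 were lower and 1 higher (median -0.34). Acsl4, an acyl-CoA synthetase that acts in hormone-stimulated steroid synthesis, differed by -1.40 (limma adjusted p = 1.88e-04), and the adenine nucleotide carrier Slc25a5 by -0.88 (limma adjusted p = 0.00166). Tspoap1, a Tspo-binding protein listed on the array as Bzrap1, differed by 1.25 (limma adjusted p = 0.0180), but its probe was well above background on 1 control-labelled and 3 PMSG-labelled arrays, and with normexp background correction or the authors' value table no gene of this list was higher. Dbi, a ligand of Tspo, had a difference of -0.34 that did not pass (limma adjusted p = 0.0555).

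Among other mitochondrial cytochromes P450 and electron donors, 4 of 10 were lower and 0 higher (median -0.21); with normexp, quantile or median scaling 1 was higher. Cytochrome P450 reductase (Por), which serves the P450 enzymes of the endoplasmic reticulum, differed by -0.93 (limma adjusted p = 5.79e-04) and the outer membrane cytochrome Cyb5b by -0.89 (limma adjusted p = 5.00e-04). Cyp11b1, of a group of near-identical genes that a probe may not tell apart, differed by -1.14 (limma adjusted p = 0.00786). Fdx2, the ferredoxin of iron-sulfur cluster assembly, differed by -0.15 and did not pass (limma adjusted p = 0.254).

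Star, Cyp11a1, Fdx1 and Fdxr are made in the cytosol, imported and trimmed in the mitochondrion. Of the import and protease genes 13 of 15 were lower and 0 higher (median -0.54), with 9 to 14 lower and 0 higher under quantile normalization, median centring, normexp or the authors' value table. The chaperonin Hspd1 differed by -1.18 (limma adjusted p = 6.16e-04), the outer membrane channel Tomm40 by -0.88 (limma adjusted p = 8.16e-04) and the matrix chaperone Hspa9 by -0.70 (limma adjusted p = 0.00680). Lonp1, the protease known to degrade Star in the matrix, differed by -0.37 (limma adjusted p = 0.0119).

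Of the genes that build the iron-sulfur clusters such as that of Fdx1, 4 of 8 were lower and 0 higher (median -0.35), and the count was 4 under each scaling. They included Bola3 (-0.93, limma adjusted p = 4.88e-04), the cysteine desulfurase Nfs1 (-0.50, limma adjusted p = 0.0135) and Glrx5 (-0.50, limma adjusted p = 0.00292). Of respiratory and other mitochondrial genes 8 of 14 were lower and 0 higher (median -0.38), led by citrate synthase Cs (-0.96, limma adjusted p = 6.12e-04), Ndufs1 (-0.76, limma adjusted p = 5.96e-04) and Sdhb (-0.56, limma adjusted p = 0.00705). At an unadjusted limma p under 0.05, 0 genes of the import, iron-sulfur and respiration lists were higher and 1 of the P450 and electron donor list was. The differences of all members were larger in size than the medians of the iron-sulfur and respiration lists. That of Tspo (-0.48) was smaller in size than the median of the import list (-0.54). No test of members against lists was made.

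Of transcription factors linked to the Star or Cyp11a1 promoter, counted with the coactivator Crtc2, which does not bind DNA itself, 4 of 19 were lower and 4 higher (median -0.08). The counts were 5 lower and 2 higher with median centring and 5 lower and 4 higher with normexp. Those lower were Nr5a2 (-1.47, limma adjusted p = 7.70e-04), a nuclear receptor of granulosa cells, Cebpb (-1.24, limma adjusted p = 0.00173), Creb1 and Fosl2. Those higher were Nr0b1, a repressor of steroidogenic genes (1.64, limma adjusted p = 3.63e-04), Cebpa, Sp1 and Crtc2. Nr5a1, the steroidogenic factor that activates many of these promoters, differed by -0.36 and did not pass (limma adjusted p = 0.260). The count of 8 factors past the threshold became 4 without control-labelled array 1 and 5 without control-labelled array 2 or 4 or PMSG-labelled array 3. In the same fits 27.3%, 26.6%, 25.9% and 31.3% of all tested probes were past it, against 34.2% with all arrays.

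**Figure D4:**
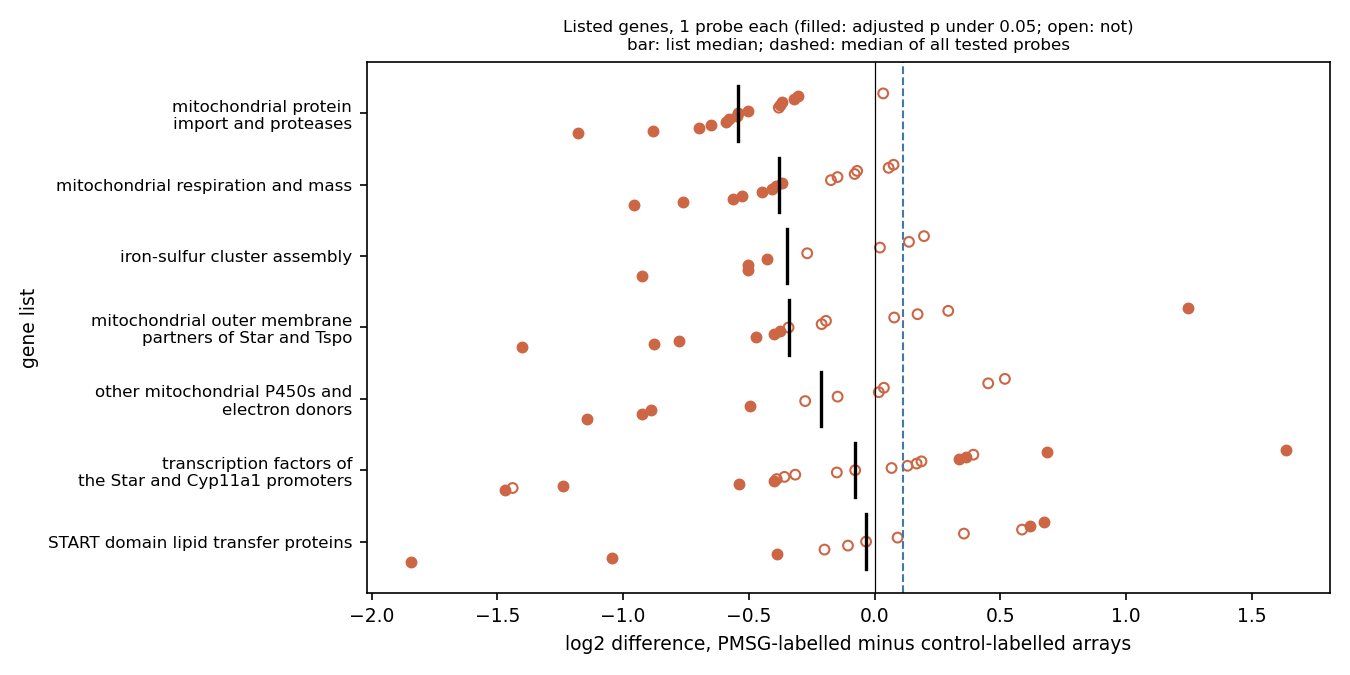
Log2 difference between arrays labelled PMSG and control (horizontal axis) for the genes of 7 lists (vertical axis). Filled points have a limma adjusted p under 0.05, open points do not, bars are list medians and the dashed line is the median of all tested probes, 0.11. The import and protease genes have the lowest median, -0.54, and the START domain genes the highest, -0.03.

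Markers of several cell types differed between the labels. All 5 oocyte markers were higher with the PMSG label (mean log2 level per array -0.11 to 1.03, against -1.67 to -0.93), and so were 4 of 4 oviduct markers (-1.50 to -1.23, against -3.72 to -2.92) and 4 of 7 macrophage and leukocyte markers (-0.01 to 0.17, against -0.61 to -0.17). Among the oviduct markers, Dnah5 was well above background on only 2 and Muc1 on 3 of the 4 control-labelled arrays. Of granulosa markers, 1 of 5 was lower and 1 higher (2.37 to 2.94 against 1.79 to 2.62). Of theca markers, 1 of 3 was lower (Lhcgr) and 1 higher (Insl3), with levels of 0.87 to 1.87 against 1.24 to 1.66. Cyp17a1, the theca enzyme that makes androgens, had a difference of -0.22 that did not pass (limma adjusted p = 0.483). Of endothelial markers 3 of 5 were lower (-1.66 to -1.16 against -1.11 to -0.80), of red blood cell markers 1 of 3, and of 4 adrenal cortex markers 1, at levels of -4.89 to -3.54 against -3.98 to -3.46. Of 4 adipocyte and 3 smooth muscle markers 0 passed by limma, also at an unadjusted p under 0.05. The part of these cell types in the members' differences was not tested.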

How the data were processed

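Per the file headers, the processed intensity of a spot came from Feature Extraction 11.5.1.1 (Agilent), with background subtraction and detrending. A deposited table adds log2 values per probe and array, whose making is not given in the sources used here. It correlated at 0.9984 to 0.9996 with the log2 scanner signals of the same array, with 0.004 to 0.015 between median values, and its column medians ran from -3.21 to -2.82. It was therefore read as log2 signal minus the 75th percentile, without centring. The processing notes of the submitters name the scanner software, and probes are on rn4, per the file headers.

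Outlier-called spots and control spots were left out, log2 processed signals of a probe's spots were averaged, and each array's 75th percentile was subtracted. Of 30367 probes 17 had no usable spot on some array and were dropped. A probe was tested where at least 0.5 of its spots were well above background on at least 4 of the 8 arrays, which left 25303. Labels were compared by limma 3.58.1 (R 4.3.3), p-values were adjusted by Benjamini-Hochberg over the 25303 probes, and 0.05 was the threshold. The procedure was tested on simulated data. The 8 arrays shared 1 slide and 1 scan date, between 80.8% and 84.6% of probes were well above background on each, and the 75th percentile of signal was 1002 to 1103 with the control label and 769 to 1082 with the PMSG label. Arrays correlated at 0.987 to 0.993 within control, 0.977 to 0.991 within PMSG and 0.960 to 0.972 between labels. With 4 arrays per group, their number limits the precision.

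The titles' replicate numbers are not said to mark shared animals. Deviations of same-numbered arrays from the group means correlated at 0.0444, 0.0361, 0.183 and -0.0192, which cannot show whether they shared a litter or a handling batch. The members, their lists, the rule for named genes (all member probes, the 3 largest differences per list and the genes most like each member) and other choices were made with earlier results of these data known. Genes named beyond that rule were chosen after their values were seen. The alternatives tried were normexp background correction (offset 50), quantile normalization, median centring, the deposited table, other filters on dim probes, array weights, no variance moderation, blocks for replicate number and slide row, medians of spots, and each array left out.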

Additional observations from a re-analysis of the deposited data

Results flagged for a closer look

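Arrays that stand apart from the others of their label were looked for in 122 groups of 4 (gene and label): the members, the genes named from the lists, the genes most like a member, and the other genes named with values for single arrays or a test. The gap to the nearest array as a share of the group's range passed Dixon's critical value in 10 groups. Chance flags about 1 in 20 independent groups, but these are not independent: the genes most like a member were chosen for following it, and Areg for being high on 1 array. The causes were not tested.

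Among the members, PMSG-labelled array 4 was low for Fdxr (4.72 against 5.18 to 5.22, share 0.911), and PMSG-labelled array 3 was high for Tspo (3.86 against 3.54 to 3.56, share 0.928). Among listed genes, control-labelled array 1 was low for Por (1.67 against 1.77 to 1.78, share 0.901) and high for Sdhb (3.80 against 3.53 to 3.58, share 0.832). PMSG-labelled array 4 was low for Ndufs1 (1.87 against 2.03 on the other arrays, share 0.942). Among genes most like a member, PMSG-labelled array 4 was low for Reep3 (-2.49 against -1.99 to -1.90, share 0.854), PMSG-labelled array 3 was high for Decr1 (3.91 against 3.76 to 3.78, share 0.846), and control-labelled array 1 was low for Emp1 (1.65 against 1.74 to 1.75, share 0.97). Among the other genes, PMSG-labelled array 2 was high for Areg (-3.23 against -5.33 to -5.11, share 0.897) and PMSG-labelled array 4 was low for Insl3 (2.49 against 3.50 to 3.59, share 0.921). The downstream Star probe, Crem and Nr4a1 were not among the flagged groups, although PMSG-labelled array 2 was the highest of its label for each.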

How the results depend on the processing

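The differences of Cyp11a1 (-3.66 to -3.09), Fdx1 (-1.34 to -0.94), Fdxr (-0.84 to -0.67) and the downstream (-3.34 to -2.40) and upstream (-2.18 to -1.89) Star probes kept their direction and stayed past the threshold under all 19 alternatives. Tspo passed under 13 of 19; it missed with quantile normalization (-0.33, limma adjusted p = 0.0621) and without 5 single arrays, and ran from -0.56 to -0.44 with 1 array left out. With the replicate number as a block, all 6 member probes passed: Cyp11a1 -3.36 (limma adjusted p = 0.00400), Star -2.75 (0.0174) and -2.05 (0.00317), Fdx1 -1.19 (0.0174), Fdxr -0.79 (0.0102) and Tspo -0.48 (0.0345), and 7346 probes were called in place of 8658. The numbers share no stated animal, so the block is only an alternative.

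With quantile normalization the Star ratios to Fdx1 (-1.44) and Fdxr (-1.86) missed the threshold (exact permutation p = 0.0571), while the ratios of Fdx1 to Fdxr (-0.42) and Fdxr to Tspo (-0.50) reached it (exact permutation p = 0.0286), as Fdxr to Tspo did with normexp (-0.33). With the upstream Star probe the Cyp11a1 ratio to Star was -1.31. With 1 array left out, that ratio ran from -1.11 to 0.02 on the downstream probe, the count of START domain genes past the threshold from 3 to 5 and of transcription factors from 4 to 8. The share of all tested probes past the threshold ran from 25.9% to 45% with 1 array left out, against 34.2% with all arrays. The cause of these changes was not tested.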

Other observations

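Cebpb, a transcription factor of the luteinising granulosa cell, gave 3.01, 3.85, 3.02 and 3.23 on PMSG-labelled arrays 1 to 4, and so was also highest on array 2, though its groups did not overlap (control-labelled arrays 4.44 to 4.63). Stard4, which had the largest difference among the listed START domain genes other than Star, did not single out that array: it gave 0.09, -0.09, -0.04 and -0.13 there, against 1.84, 1.71, 1.88 and 1.78 on control-labelled arrays. The genes were chosen after their values were seen.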
